A study of Mus musculus with 12 samples.

Results

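The genes described here are 40 genes of hepatic stellate cells and of the extracellular matrix, taken by name. They and the other gene lists below were chosen with earlier results of these data known. All 40 were found among the 56748 genes of the count table and tested among 15465. Of these 40, 38 lay over the cutoff of 0.424 counts per 1000000 (CPM) in every library, Lox did so in 7 and Timp1 in 4 libraries. They were grouped by role into fibrillar collagens, basement membrane collagens, other collagens, glycoproteins and proteoglycans, elastic fibre proteins, cross-linking enzymes, matrix turnover enzymes and their inhibitors, contractile proteins, quiescent stellate genes and signalling genes. Poly(A)-enriched RNA of flash-frozen liver was sequenced in 12 libraries from 12-week-old mice that all bore pancreatic ductal adenocarcinoma (PDAC), with 3 mice in each of 4 groups. The control mice are labelled both as isotype control and as no treatment, and are called isotype control below. The agoCD40 group received an agonistic antibody against CD40, a co-stimulatory receptor of macrophages, dendritic cells and B cells. The anti-IL-1R1 group received an antibody blocking IL-1R1, the signalling receptor of interleukin-1, and the Combo group received both antibodies. The labels name no mouse strain, tumour model, sex, dose or interval between treatment and sampling, so the tumour burden of the livers is not known here.

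Hepatic stellate cells lie between hepatocytes and the sinusoidal endothelium and, in the resting state, store retinyl esters. On injury they lose these stores, take on a contractile myofibroblast form and secrete fibrillar collagens, elastin and the enzymes that cross-link both. Portal fibroblasts around the bile ducts and portal vessels are another source of matrix, sinusoidal endothelium makes basement membrane proteins, and hepatocytes make plasma fibronectin. In bulk liver RNA, more cells of a type and more RNA per cell cannot be told apart, and this holds for every difference below.

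The libraries held between 18681390 and 27118712 expected counts, and mitochondrial genes took between 6.23% and 14.8% of them, with the highest shares in isotype control replicate 2 (14.1%) and anti-IL-1R1 replicate 2 (14.8%). Some libraries stood apart over the whole set of genes. Combo replicate 1 was the highest of all 12 libraries for 35 of the 40 genes, and Combo replicate 3 was the lowest of its group for 38. Within the isotype control group, replicate 3 was the highest for 36 genes, and isotype control replicate 2 was the lowest of all libraries for 21. In CPM some of these 21 were lowest elsewhere, such as Col1a2 in isotype control replicate 1 and Reln in agoCD40 replicate 1. Counts and medians over the set are therefore also given without single libraries. Effects of single genes come from all 12 libraries unless stated.

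On the TPM scale, transcripts per 1000000, which corrects for gene length, the members spanned about 3 orders of magnitude. Fibronectin Fn1, the matrix and plasma glycoprotein, averaged 287 TPM over the 12 libraries, and Col18a1, the collagen from which endostatin is cut, averaged 192 TPM. The proteoglycans Dcn and Bgn averaged 109 and 57.8 TPM, and the collagen-binding glycoprotein Sparc 52.9 TPM. Among fibrillar collagens Col3a1 was the highest at 23.03 TPM, above Col1a2 at 7.45 and Col1a1 at 5.41 TPM. The lowest members were Lox at 0.234 TPM, Fbn1 at 0.552 TPM and Timp1 at 0.680 TPM. The quiescent stellate genes Reln, Lrat, Des and Hgf were all detected in every library, with Reln between 2.60 to 23.8 TPM and Lrat between 1.91 to 4.33 TPM, and each of 16 further stellate markers passed the filter on low counts. Stellate markers were thus present in all 4 groups.

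Before the values, 4 of the genes are shown with the 250 bases before their start, picked by the outcome of the tests described below. Col3a1 and Col6a3 are collagens that rose in the livers given the agonist, and Lrat and Reln are quiescent stellate genes that did not pass the test in any comparison. No test compared these pairs of genes with each other. RefSeq windows of build GRCm38.p6 matched 27 of the 40 genes, 17 of these windows held no annotated exon, and the 4 were picked from those. Each sequence runs 5′ to 3′ on the gene's own strand, and capitals mark a match on either strand to 1 of 5 motifs. These were TATAAA for the TATA box, CCAAT for the CCAAT box and GGGCGG for the GC box. The others were TGANTCA for an AP-1 site and GTCTAGAC for the palindrome bound by SMAD proteins. No 2 matches in these windows overlapped.
Col3a1, chr1:45311288-45311537, plus strand: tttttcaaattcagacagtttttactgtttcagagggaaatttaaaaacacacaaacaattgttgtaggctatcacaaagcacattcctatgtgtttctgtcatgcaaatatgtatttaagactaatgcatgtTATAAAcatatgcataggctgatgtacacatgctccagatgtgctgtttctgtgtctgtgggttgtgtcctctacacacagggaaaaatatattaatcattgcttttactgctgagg
Col6a3, chr1:90843972-90844221, minus strand: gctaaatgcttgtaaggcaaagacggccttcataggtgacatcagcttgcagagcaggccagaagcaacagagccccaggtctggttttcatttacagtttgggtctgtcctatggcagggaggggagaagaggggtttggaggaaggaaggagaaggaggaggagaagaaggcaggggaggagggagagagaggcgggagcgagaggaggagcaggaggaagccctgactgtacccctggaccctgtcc
Lrat, chr3:82903975-82904224, minus strand: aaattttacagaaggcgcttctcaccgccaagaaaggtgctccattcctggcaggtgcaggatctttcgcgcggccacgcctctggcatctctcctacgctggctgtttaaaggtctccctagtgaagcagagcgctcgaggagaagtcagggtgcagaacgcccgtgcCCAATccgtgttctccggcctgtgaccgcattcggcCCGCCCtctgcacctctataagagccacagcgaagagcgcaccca
Reln, chr5:22344706-22344955, minus strand: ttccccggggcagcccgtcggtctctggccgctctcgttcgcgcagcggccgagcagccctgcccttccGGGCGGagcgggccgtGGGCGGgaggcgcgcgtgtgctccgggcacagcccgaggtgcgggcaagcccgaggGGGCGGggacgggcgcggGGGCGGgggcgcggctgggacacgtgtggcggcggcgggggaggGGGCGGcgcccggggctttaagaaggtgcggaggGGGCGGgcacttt

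The Col3a1 window had a GC content of 35.2% and held 1 match, TATAAA, beginning 117 bases before the start. The Col6a3 window, with a GC content of 57.2%, held none of the 5 motifs. The Lrat window held CCAAT 81 bases and CCGCCC, the GC box on the other strand, 45 bases before the start. Reln had the most GC-rich of the 4 windows, at 80.0%, with 6 GC boxes. Over all 27 matched windows the GC box was found in 16, against 32.7% of 32817 promoter windows of the same length, and the CCAAT box in 9, against 33.8%. Those 32817 windows held every listed start, while each member had 1 window, free of its own exons where possible. TATAAA was found only in Col3a1 (12.4% of all windows), TGANTCA only in Col6a1 (6.75% of all windows), and GTCTAGAC in none (0.168% of all windows). A match describes the letters of the window and is not a measured binding site.

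Chains of type I, III and VI collagen, elastin, the cross-linking enzymes Lox and Loxl1, and Mmp2 and Timp2 rose in the livers that received the CD40 agonist when the groups with and without IL-1R1 blockade were averaged, and the other members did not pass the test. The mean of the agonist effects without blockade (agoCD40 against isotype control) and with blockade (Combo against anti-IL-1R1) sets 6 libraries against 6, and was added after the data were seen. In it 11 of the 40 genes rose and none fell, at an adjusted p under 0.05 in edgeR's quasi-likelihood test with Benjamini-Hochberg adjustment over all 15465 genes. Of all genes 2.48% passed the same test in either direction and 1.48% were higher. The 11 were Col1a1, Col1a2, Col3a1, Col6a1, Col6a2, Col6a3, Eln, Lox, Loxl1, Timp2 and Mmp2. Of the 11, Lox passed the filter on low counts mainly through the agonist libraries. DESeq2 called 17 higher (3.1% of all genes), these 11 and Col5a1, Col5a2, Col4a2, Col15a1, Fbln5 and Pdgfrb, while calls below are those of edgeR unless DESeq2 is named. Of the 40 log2 fold changes 36 were above 0 (49.9% of all genes), with a median of 0.71, and the median of all genes was 0.00. The libraries with and without the agonist did not overlap for 6 genes, all higher with it (1.55% of all genes). The 40 genes and this comparison were both chosen with results of these data known. The shares of all genes therefore stand beside the counts as a description and give no independent test of the set. The median ranged from 0.42 to 1.04 when each library was left out in turn, and the number of genes called ranged from 3 without anti-IL-1R1 replicate 3 to 15 without isotype control replicate 3 or without Combo replicate 3. Without Combo replicate 1, the highest library, 6 genes were called. The log2 fold change of each of the 11 genes was smaller without it. These values ran from 0.72 for Timp2 to 2.39 for Eln, against 0.94 and 2.66 with all libraries.

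**Figure D1:**
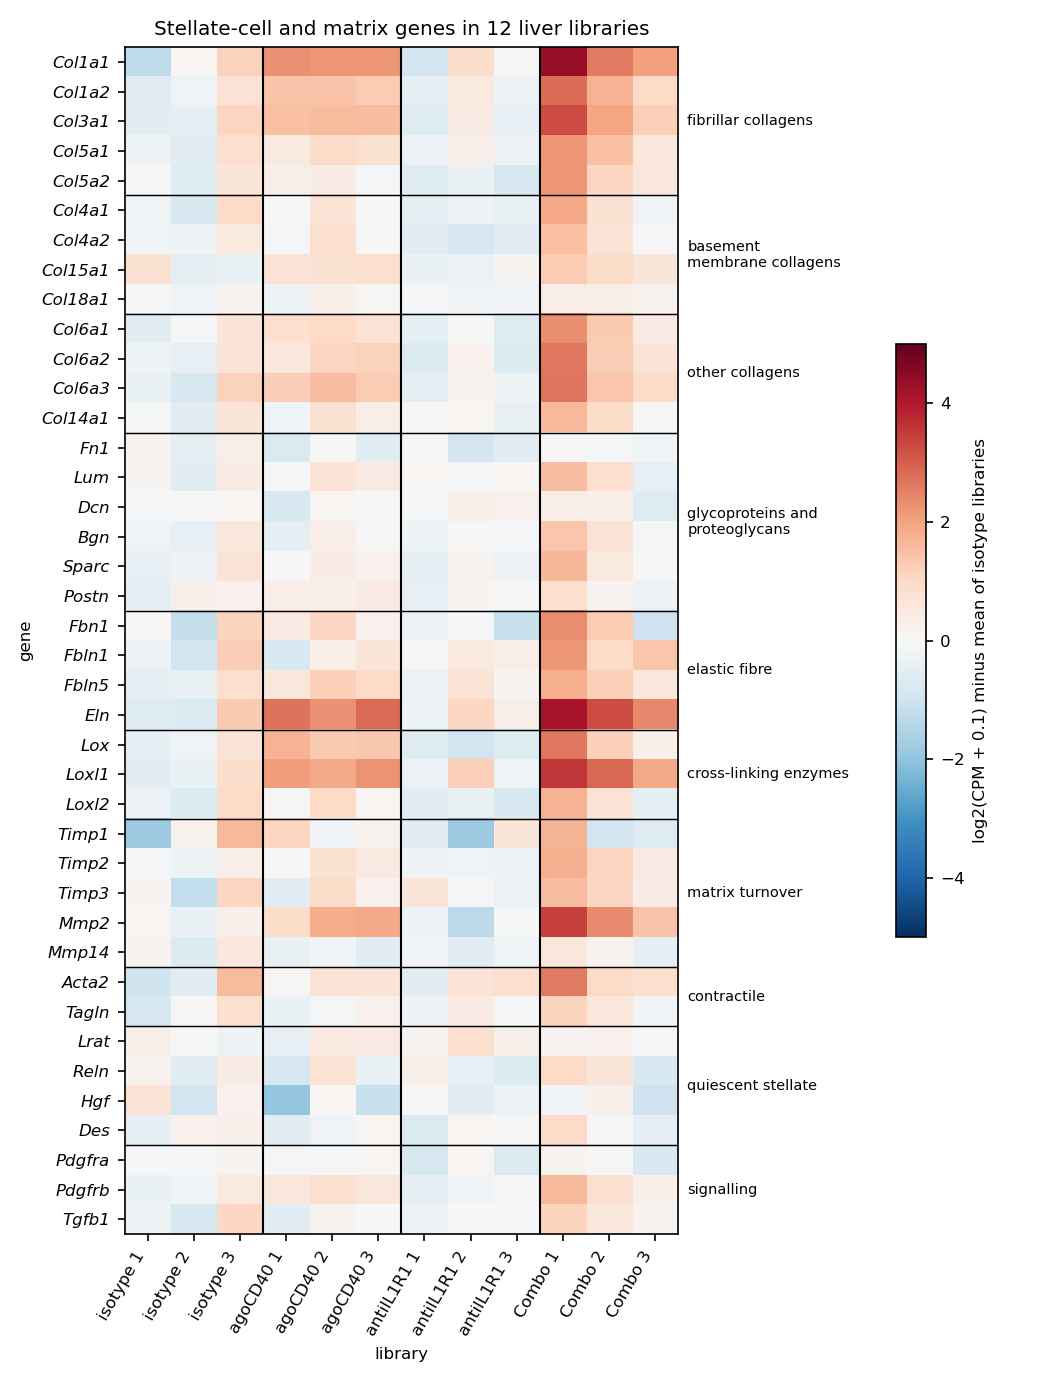
Colour shows the log2 of CPM plus 0.1 minus the mean of the isotype control libraries, for 40 genes (rows, grouped by role) in 12 libraries (columns, grouped by treatment). Combo replicate 1 is the warmest column, being the highest library for 35 genes, and isotype control replicate 3 is the warmest of its group. The agoCD40 and Combo columns are both warm mainly in the rows of type I, III and VI collagen chains, Eln, Lox, Loxl1 and Mmp2.

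The pairwise comparisons, of 3 libraries against 3, gave fewer calls in the same direction. In agoCD40 against isotype control none of the 40 genes passed, where 0.718% of all genes did and 0.272% were higher. Without adjustment 8 of them had a p under 0.05 by edgeR, all higher (5.02% of all genes), and DESeq2 called 3 higher (1.2% of all genes). The libraries of the 2 groups did not overlap for 11 genes, all higher in agoCD40 (7.52% of all genes), and 28 were above 0 (47.2% of all genes). The median log2 fold change was 0.25 (all genes -0.02). Both values moved with single libraries: 20 genes were above 0 with a median of 0.01 without isotype control replicate 2, 25 with 0.12 without isotype control replicate 1, and 24 with 0.03 without agoCD40 replicate 2. They were 35 and 0.68 without isotype control replicate 3 and 33 and 0.40 without agoCD40 replicate 1. In Combo against isotype control, Eln, Mmp2 and Loxl1 rose, where 0.407% of all genes passed and 0.252% were higher. Here 36 genes were above 0 (48.4% of all genes), the median was 0.88 (all genes -0.02), and the libraries did not overlap for 9 genes (8.78% of all genes). None of the 3 calls was kept without isotype control replicate 1, isotype control replicate 2, Combo replicate 1 or Combo replicate 2, each left out alone. In Combo against anti-IL-1R1, also added after the data were seen, only Mmp2 rose, where 0.175% of all genes passed and 0.129% were higher. There 38 genes were above 0 (52.3% of all genes) with a median of 1.16 (all genes 0.03), and 20 genes did not overlap between the groups (12.3% of all genes). Mmp2 was not called there without any 1 of Combo replicate 1, Combo replicate 2 or an anti-IL-1R1 library. Leaving out Combo replicate 3 gave 8 calls.

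**Figure D2:**
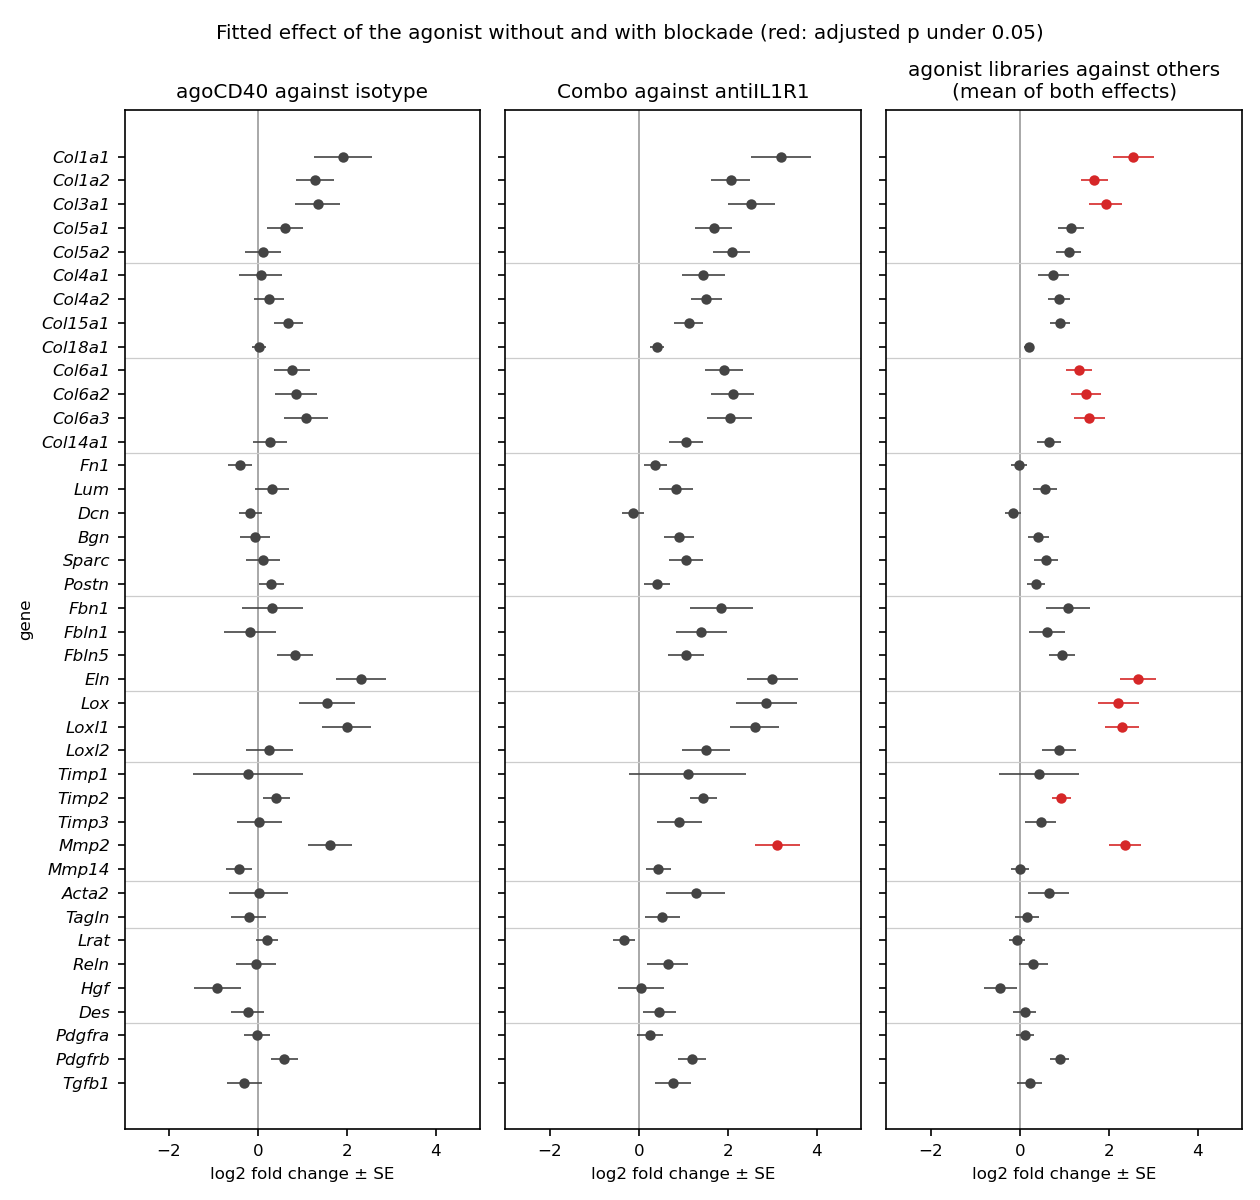
Points are fitted log2 fold changes with their SE for 40 genes (rows, grouped by role) in agoCD40 against isotype control, Combo against anti-IL-1R1, and the mean of these 2 effects, with red for an adjusted p under 0.05. No point is red on the left, Mmp2 alone is red in the middle and 11 points are red on the right, all to the right of 0.

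Of the fibrillar collagens, the rope-like collagens of scar tissue, Col1a1, Col1a2 and Col3a1 rose with the agonist, and the minor chains Col5a1 and Col5a2 did not pass the test. Per-library levels of single genes are given below as CPM after TMM scaling, the scale of the tests. Col1a1, the alpha-1 chain of type I collagen, was at 2.41, 6.43 and 13.6 CPM in isotype control replicates 1 to 3 and at 3.00, 11.1 and 6.15 CPM in the anti-IL-1R1 libraries. The agoCD40 libraries held 29.5, 27.6 and 28.3 CPM of it and the Combo libraries 124, 37.1 and 25.1 CPM. Every agonist library lay above every other library, and the 3 agoCD40 libraries were nearly equal while the Combo libraries spread widely, with replicate 1 far above the rest. The agonist effect on Col1a1 was a log2 fold change of 2.56 ± 0.47 (SE) with an adjusted p of 0.0155. Col1a2, which supplies the alpha-2 chain, was at 10.1, 12.8 and 24.4 CPM in isotype control, 39.6, 39.7 and 35.5 in agoCD40, 10.5, 20.5 and 12.3 in anti-IL-1R1 and 103, 49.1 and 29.2 in Combo. Its groups with and without the agonist did not overlap either, and its effect was 1.67 ± 0.30 (adjusted p = 0.0155). Col3a1, type III collagen, was at 22.5, 23.3 and 69.02 CPM in isotype control, 94.99, 99.98 and 96.8 in agoCD40, 21.3, 43.5 and 24.9 in anti-IL-1R1 and 315, 129 and 74.8 in Combo. Isotype control replicate 3 lay just under Combo replicate 3, the lowest agonist library, and the effect was 1.94 ± 0.37 (adjusted p = 0.0179). Among 12 libraries left out in turn and 9 other settings, the calls of Col1a1 and Col1a2 were lost only without anti-IL-1R1 replicate 3. The call of Col3a1 was lost there too (adjusted p = 0.0563) and with the replicate number as a block (adjusted p = 0.0521). Type V collagen, which sets the diameter of collagen fibrils, had effects of 1.14 ± 0.29 for Col5a1 (adjusted p = 0.0612) and 1.10 ± 0.29 for Col5a2 (adjusted p = 0.0677). Col5a2 stood at 0.11 ± 0.40 in agoCD40 against isotype control and at 1.28 ± 0.40 in Combo against agoCD40, where the 3 Combo libraries lay above all agoCD40 libraries but the adjusted p was 0.563.

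Type I collagen is a trimer of 2 alpha-1 chains and 1 alpha-2 chain. The ratio of Col1a1 to Col1a2 in TPM was 0.215, 0.452 and 0.499 in isotype control and 0.258, 0.455 and 0.449 in anti-IL-1R1. It was 0.657, 0.617 and 0.713 in agoCD40 and 1.03, 0.659 and 0.752 in Combo. The 6 agonist libraries thus all had a higher share of alpha-1 transcript than the 6 others, and the ratio reached 1 only in Combo replicate 1. This ratio was looked at after the values were seen and was not tested.

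The 3 chains of type VI collagen, a beaded filament around cells, rose together, and Col14a1, a fibril-associated collagen, did not pass the test. Col6a1 was at 5.15, 6.98 and 11.6 CPM in isotype control, 13.5, 15.2 and 12.00 in agoCD40, 5.32, 7.55 and 4.80 in anti-IL-1R1 and 37.99, 18.8 and 9.91 in Combo, with an agonist effect of 1.34 ± 0.29 (adjusted p = 0.0324). Col6a2 was at 3.75, 3.42 and 7.20, 6.54, 9.66 and 10.1, 2.73, 5.31 and 2.78 and 28.8, 10.9 and 7.29 CPM in the same order of groups, with an effect of 1.49 ± 0.34 (adjusted p = 0.037). Col6a3 was at 3.97, 2.91 and 11.5, 12.1, 15.2 and 12.3, 3.78, 5.80 and 4.33 and 33.7, 13.6 and 10.03 CPM, with an effect of 1.57 ± 0.35 (adjusted p = 0.0367). In all 3 genes isotype control replicate 3 lay inside the range of the agonist libraries and the other 5 libraries without agonist lay below it. The 3 calls were kept in only 2 or 3 of the 12 fits that left out 1 library, with the highest adjusted p near 0.1. Col14a1 was at 42.3, 31.5 and 69.2 CPM in isotype control, 40.5, 75.98 and 57.1 in agoCD40, 45.9, 48.9 and 34.8 in anti-IL-1R1 and 139.6, 86.4 and 44.1 in Combo, so that the groups overlapped throughout, and its effect was 0.67 ± 0.27 (adjusted p = 0.239).

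None of the 4 basement membrane collagens passed the test in any comparison, while DESeq2 called Col4a2 and Col15a1 higher in the agonist effect (3.1% of all genes). In Combo against anti-IL-1R1 all 4 were higher without overlap of the libraries (12.3% of all genes), with adjusted p from 0.0935 to 0.265. The 5 fibrillar collagens did not overlap there either, and had adjusted p from 0.0759 to 0.122. Col18a1 was at 801, 691 and 875 CPM in isotype control, 659, 929 and 810.4 in agoCD40, 745, 689 and 711 in anti-IL-1R1 and 999.7, 959 and 876 in Combo. The Combo libraries lay above all isotype control libraries, by less than 1 CPM at the nearest pair, with a log2 fold change of 0.26 ± 0.16 (adjusted p = 0.56). Col15a1, which like Col18a1 is a multiplexin of vascular basement membranes, was at 5.41, 2.31 and 2.52 CPM in isotype control, 5.22, 5.49 and 5.63 in agoCD40, 2.50, 2.57 and 3.53 in anti-IL-1R1 and 7.75, 6.09 and 4.89 in Combo. Only isotype control replicate 1 reached the agonist libraries there, and the agonist effect of 0.90 ± 0.23 had an adjusted p of 0.0618. Col4a1 and Col4a2, the chains of the type IV collagen network, had agonist effects of 0.76 ± 0.34 (adjusted p = 0.298) and 0.89 ± 0.24 (adjusted p = 0.0795). The median effect of the 4 genes was 0.82, below the 1.67 of the fibrillar collagens. The difference between these medians was not tested.

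Of the elastic fibre and cross-linking genes, Eln, Loxl1 and Lox rose. Elastin, Eln, was at 1.07, 1.00 and 4.34 CPM in isotype control, 11.6, 8.55 and 12.8 in agoCD40, 1.41, 3.68 and 2.10 in anti-IL-1R1 and 31.4, 17.1 and 9.44 in Combo. The 6 agonist libraries lay at 8.55 CPM or above and the 6 others at 4.34 or below. Its agonist effect was 2.66 ± 0.40, a 6.33-fold difference, with an adjusted p of 0.00569, and it also rose in Combo against isotype control (3.13 ± 0.58, adjusted p = 0.0406). Loxl1, the lysyl oxidase-like enzyme that cross-links elastin, was at 0.643, 0.753 and 1.89 CPM in isotype control, 4.50, 3.94 and 5.01 in agoCD40, 0.774, 2.37 and 0.834 in anti-IL-1R1 and 12.7, 7.73 and 3.88 in Combo, again with no overlap. Its effect was 2.30 ± 0.38 (adjusted p = 0.00985), and 2.85 ± 0.55 in Combo against isotype control (adjusted p = 0.0495). Eln and Loxl1 kept their calls of the agonist effect in each of the 12 fits without 1 library and in each of 9 other settings, with highest adjusted p values of 0.0246 and 0.0341. Lox, the lysyl oxidase of collagen and elastin, was low, at 0.268, 0.352 and 0.705 CPM in isotype control, 1.61, 1.18 and 1.22 in agoCD40, 0.228, 0.163 and 0.238 in anti-IL-1R1 and 3.12, 1.08 and 0.506 in Combo. These values stand for 4 to 74 expected counts a library. Only the 6 agonist libraries and isotype control replicate 3 lay over the cutoff of 0.424 CPM. Lox thus entered the test mainly through the groups where it was high, which limits its call. Combo replicate 3 lay below isotype control replicate 3, and the effect of 2.22 ± 0.47 (adjusted p = 0.0268) was called in 4 of 12 fits without 1 library. Loxl2, a collagen cross-linking relative, was at 0.89 ± 0.38 (adjusted p = 0.268).

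The other elastic fibre genes did not pass the test. Fbln5, a fibulin that guides elastin assembly, was at 3.22, 3.37 and 7.71 CPM in isotype control, 6.62, 10.2 and 8.84 in agoCD40, 3.55, 7.15 and 4.76 in anti-IL-1R1 and 15.8, 10.3 and 6.28 in Combo, with an effect of 0.95 ± 0.29 (adjusted p = 0.115). Isotype control replicate 3 and anti-IL-1R1 replicate 2 lay among the agonist libraries. The microfibril protein Fbn1 had an effect of 1.09 ± 0.49 (adjusted p = 0.298) and Fbln1 one of 0.62 ± 0.41 (adjusted p = 0.492). Fbn1 shares 20.1% of its annotated exon bases with Gm9913 on the other strand, which was listed at no more than 0.0722 TPM.

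**Figure D3:**
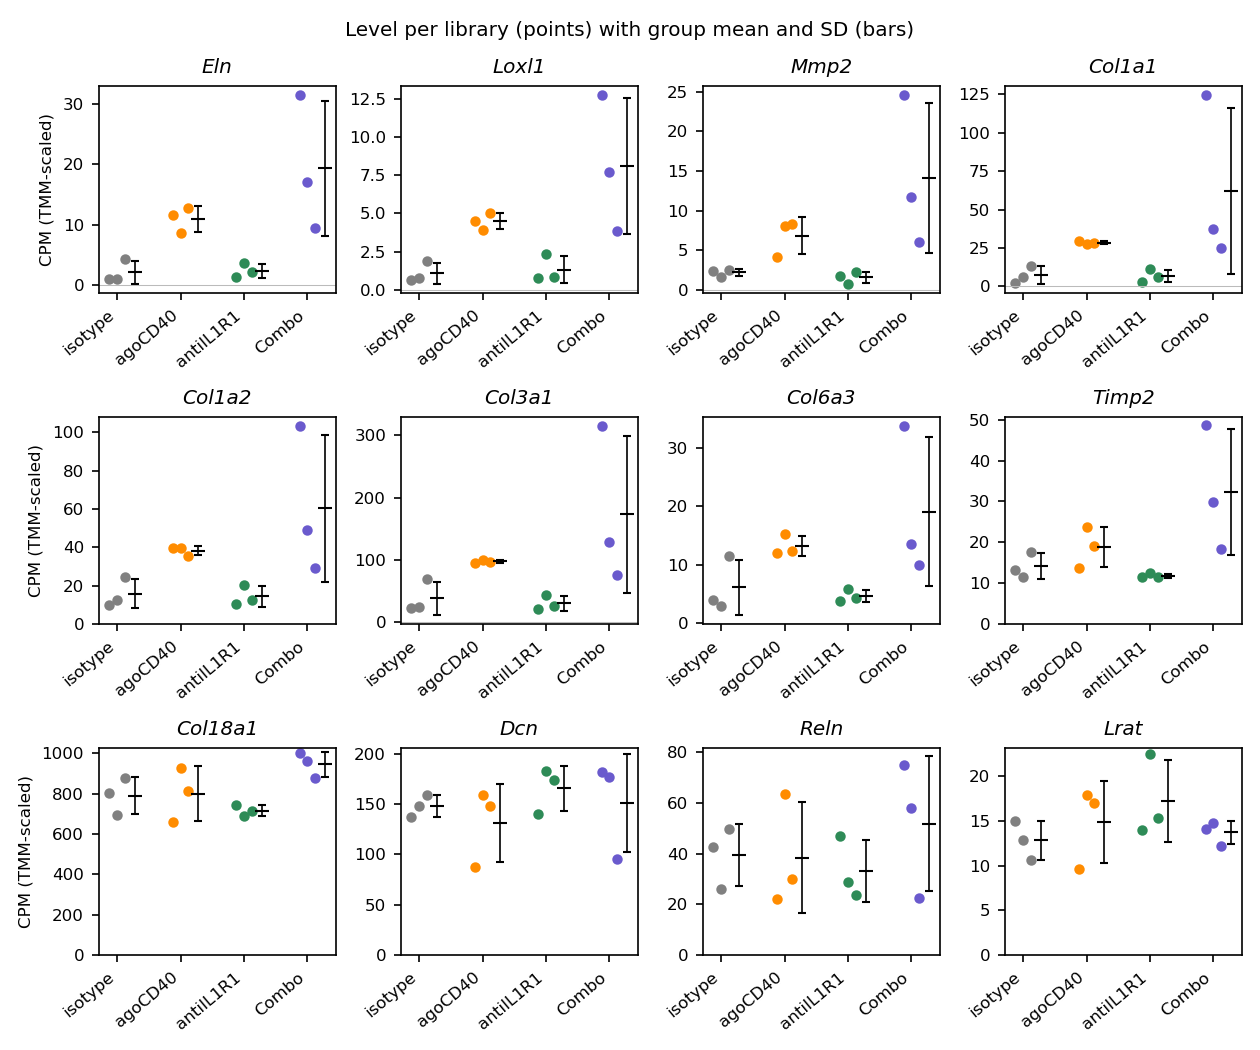
CPM after TMM scaling in each library (points) with the group mean and SD (bars) for 12 genes, on axes that start at 0. Eln, Loxl1, Mmp2, Col1a1, Col1a2 and Col3a1 have all 6 agonist libraries above the 6 others, while Dcn, Reln and Lrat overlap across the 4 groups, and Combo replicate 1 is the top point in most panels.

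Among matrix turnover genes, the gelatinase Mmp2 and the inhibitor Timp2 rose and Mmp14 did not pass the test. Timp2 and Mmp14, a membrane-bound protease, together form the complex that activates the Mmp2 proenzyme on the cell surface. Mmp2 was at 2.36, 1.71 and 2.60 CPM in isotype control, 4.20, 8.11 and 8.32 in agoCD40, 1.82, 0.817 and 2.22 in anti-IL-1R1 and 24.5, 11.7 and 6.03 in Combo. Every agonist library, from 4.20 CPM, exceeded every other library, up to 2.60 CPM. The agonist effect was 2.37 ± 0.35 (adjusted p = 0.00501), with 2.66 ± 0.50 in Combo against isotype control (adjusted p = 0.0413) and 3.12 ± 0.51 in Combo against anti-IL-1R1 (adjusted p = 0.0306). The agonist call was kept in all 12 fits without 1 library and in 9 other settings, with a highest adjusted p of 0.0226. Timp2 was at 13.2, 11.6 and 17.7 CPM in isotype control, 13.8, 23.7 and 19.2 in agoCD40, 11.5, 12.4 and 11.4 in anti-IL-1R1 and 48.8, 29.8 and 18.3 in Combo. The agoCD40 and isotype control libraries overlapped, and the effect of 0.94 ± 0.22 (adjusted p = 0.0403) was called in 3 of 12 fits without 1 library. Mmp14 was at 25.5, 14.4 and 33.3 CPM in isotype control, 17.6, 20.8 and 16.1 in agoCD40, 20.5, 15.9 and 19.7 in anti-IL-1R1 and 33.8, 25.9 and 16.6 in Combo. All groups overlapped for Mmp14, with an effect of 0.01 ± 0.21 (adjusted p = 0.992). Timp3, an inhibitor bound to the matrix, had an effect of 0.47 ± 0.36 (adjusted p = 0.554), and shares 21.3% of its exon bases with Syn3 on the other strand, listed at 0.741 to 2.50 TPM. Timp1, an inhibitor induced in many forms of liver fibrosis, stood at 27 expected counts or fewer in every library and at 0 in isotype control replicate 1 and anti-IL-1R1 replicate 2, and its effect was 0.43 ± 0.90 (adjusted p = 0.862).

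None of the 6 glycoproteins and proteoglycans passed the test. Fn1 was at 1672, 1072 and 1820.2 CPM in isotype control, 902, 1515 and 1039.9 in agoCD40, 1438, 767 and 1034 in anti-IL-1R1 and 1529.6, 1399 and 1268 in Combo. Its highest library was isotype control replicate 3, and the agonist effect was -0.01 ± 0.19 (adjusted p = 0.982). Bgn, a small leucine-rich proteoglycan, was at 68.02, 57.5 and 114 CPM in isotype control, 53.99, 96.9 and 77.2 in agoCD40, 64.4, 76.6 and 73.6 in anti-IL-1R1 and 201, 128 and 72.8 in Combo. Combo replicates 1 and 2 lay above all other libraries and Combo replicate 3 among them, with an effect of 0.42 ± 0.24 (adjusted p = 0.42). Its relatives Dcn and Lum had effects of -0.15 ± 0.18 and 0.57 ± 0.27, Sparc of 0.59 ± 0.27 and periostin, Postn, of 0.36 ± 0.20. The median effect of the 6 genes was 0.39.

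The contractile and signalling genes likewise gave no call. Acta2, the smooth muscle actin that marks activated stellate cells, was at 1.02, 1.41 and 6.53 CPM in isotype control, 2.25, 3.50 and 3.42 in agoCD40, 1.41, 3.51 and 3.89 in anti-IL-1R1 and 13.5, 4.20 and 3.75 in Combo. Isotype control replicate 3 was the second highest library, after Combo replicate 1, and the agonist effect was 0.65 ± 0.47 (adjusted p = 0.535). The actin-binding protein Tagln was at 3.86, 7.38 and 12.3 CPM in isotype control, 5.52, 6.67 and 8.25 in agoCD40, 5.96, 9.51 and 6.79 in anti-IL-1R1 and 15.2, 10.5 and 6.41 in Combo, with an effect of 0.16 ± 0.28 (adjusted p = 0.828). Its groups overlapped, and 62.4% of its exon bases lie under the antisense gene Gm48529, listed at 0.715 to 1.76 TPM. Pdgfrb, the platelet-derived growth factor receptor through which stellate cells are driven to divide, was at 7.50, 8.44 and 13.4 CPM in isotype control, 13.9, 16.4 and 14.2 in agoCD40, 6.74, 8.70 and 9.25 in anti-IL-1R1 and 29.02, 16.5 and 11.3 in Combo. All agoCD40 libraries exceeded the isotype control libraries, by less than 1 CPM at the nearest pair, and the agonist effect of 0.90 ± 0.22 just missed the threshold (adjusted p = 0.0517). Tgfb1, the main fibrogenic cytokine, was at 7.72, 5.32 and 19.2 CPM in isotype control, 6.24, 10.5 and 9.50 in agoCD40, 7.56, 9.23 and 9.25 in anti-IL-1R1 and 20.1, 13.8 and 10.3 in Combo. Its highest libraries were Combo replicate 1 and isotype control replicate 3, and its effect was 0.23 ± 0.28 (adjusted p = 0.743). The related receptor gene Pdgfra had an effect of 0.12 ± 0.20 (adjusted p = 0.826).

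The 4 quiescent stellate genes did not pass the test in any comparison, and their median agonist effect was 0.03. Reln, a secreted protein made by resting stellate cells in liver, was at 42.6, 25.97 and 49.8 CPM in isotype control, 21.9, 63.4 and 30.05 in agoCD40, 47.01, 28.9 and 23.6 in anti-IL-1R1 and 75.01, 57.9 and 22.6 in Combo. Low and high libraries occurred in every group, and the agonist effect was 0.30 ± 0.32 (adjusted p = 0.69). Lrat, which esterifies retinol for storage, was at 15.01, 12.9 and 10.6 CPM in isotype control, 9.59, 17.95 and 17.05 in agoCD40, 13.97, 22.5 and 15.4 in anti-IL-1R1 and 14.2, 14.8 and 12.3 in Combo. Its highest library was anti-IL-1R1 replicate 2 and its effect -0.06 ± 0.18 (adjusted p = 0.906). Hgf, the hepatocyte growth factor that stellate cells supply, was at 10.9, 3.32 and 7.60 CPM in isotype control, 1.61, 7.00 and 2.95 in agoCD40, 6.64, 4.37 and 5.48 in anti-IL-1R1 and 5.90, 7.89 and 3.16 in Combo. The groups overlapped for Hgf, with an effect of -0.44 ± 0.37 (adjusted p = 0.602), and Des, the intermediate filament desmin, had an effect of 0.11 ± 0.26 (adjusted p = 0.875). None of 16 further quiescent stellate markers passed in any comparison (median agonist effect 0.14), and their summed level ran from 207 to 320 TPM in isotype control, 218 to 291 in agoCD40, 219 to 324 in anti-IL-1R1 and 209 to 360 in Combo.

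The fibrillar and the quiescent genes can be set against each other within a library. The 5 fibrillar collagens summed to 10.7, 8.24 and 37.2 TPM in isotype control, 38.6, 51.6 and 37.3 in agoCD40, 12.5, 15.3 and 10.1 in anti-IL-1R1 and 168, 66.4 and 32.4 in Combo. Isotype control replicate 3 reached the lower agonist libraries on this sum. The 4 quiescent genes summed to between 7.77 TPM in isotype control replicate 2 and 35.2 TPM in Combo replicate 1, and overlapped in all groups. Reln alone held 2.60 and 23.8 TPM of these 2 sums, so the ratio below depends much on 1 gene. The ratio of the sums was 0.460, 1.06 and 1.43 in isotype control and 0.633, 1.29 and 0.798 in anti-IL-1R1. It was 3.80, 1.64 and 2.17 in agoCD40 and 4.78, 2.13 and 2.56 in Combo. On this ratio all 6 agonist libraries exceeded all 6 others, and isotype control replicate 3, at 1.43, no longer lay among them. The ratio was formed with the values known and is a description with no test.

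**Figure D4:**
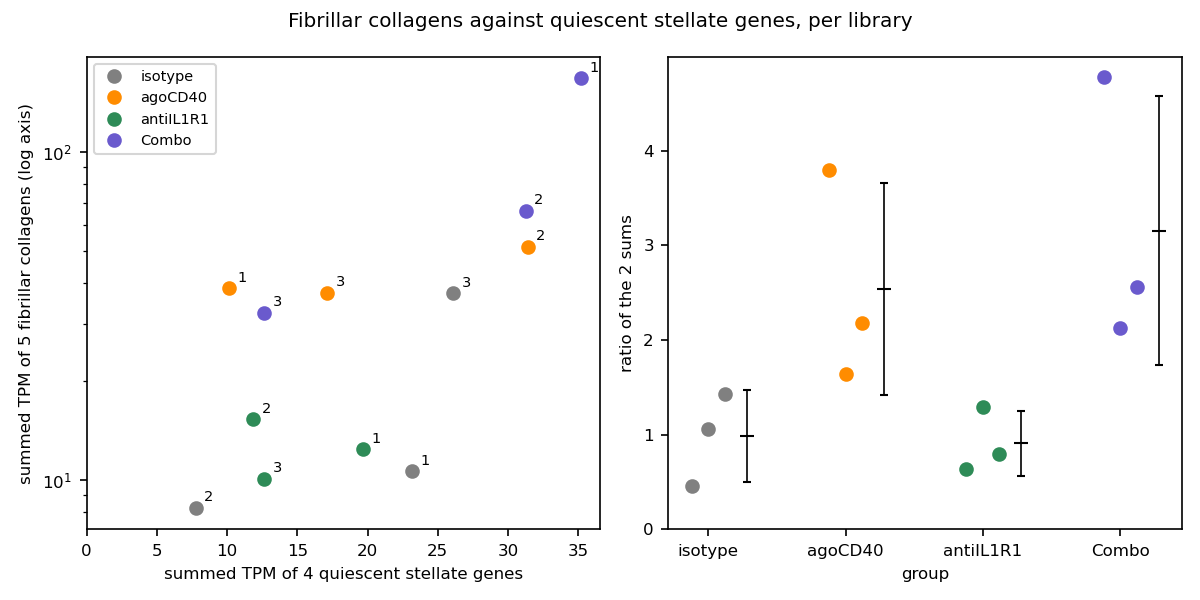
Left, the summed TPM of 5 fibrillar collagens (log axis) against that of 4 quiescent stellate genes, 1 point a library, numbered by replicate. Right, the ratio of the sums in each library, with the group mean and SD as bars: agoCD40 and Combo libraries lie at 1.64 and above, the others at 1.43 and below.

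IL-1R1 blockade alone called no gene of the set and no gene at all (0% of all genes by edgeR, 565 genes at an unadjusted p under 0.05, 0 of them among the 40, and 3 genes or 0.0194% by DESeq2, none of them of the set). Of the 40 log2 fold changes 35 were below 0 and 5 above (46.4% of all genes), with a median of -0.25 (all genes -0.02), and the anti-IL-1R1 group had the lowest mean of the 4 groups for 34 genes. That direction rested on isotype control replicate 3: without it 24 of the 40 were above 0 and the median was 0.13. Adding blockade to the agonist, Combo against agoCD40, called none of the 40 by edgeR or DESeq2, where 0.00647% and 0.556% of all genes passed, and gave 5 higher genes at an unadjusted p under 0.05 (3.41% of all genes). Libraries did not overlap for 3 genes, higher in Combo (7.64% of all genes), namely Col5a2, Fbln1 and Acta2. There 37 genes were above 0 (51.4% of all genes) with a median of 0.64 (all genes 0.01), and without Combo replicate 1 the median was 0.09 with 28 genes above 0. The interaction, which asks whether the agonist effect differed with blockade, also called none of the 40 by edgeR (0.00647% of all genes) or DESeq2 (0.563% of all genes). Of the 40, 4 were higher at an unadjusted p under 0.05 by edgeR (4.64% of all genes). Of its 40 values 39 were above 0 (52.8% of all genes). The median was 0.95 (all genes 0.03), or 0.37 without Combo replicate 1, and its smallest adjusted p among the 40 was 0.492, for Col5a2 at 1.97 ± 0.57. For Eln the interaction was 0.69 ± 0.78, for Mmp2 1.49 ± 0.68 and for Col1a1 1.29 ± 0.89, with adjusted p of 0.819, 0.665 and 0.746.

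Other genes of the same pathways were read from lists that do not contain the 40. In the agonist effect 2.48% of all genes passed in either direction and 1.48% were higher. The share that passed was 0.718% in agoCD40 against isotype control and 0.407% in Combo against isotype control. Of 18 tested genes of collagen folding and processing, P4ha2, a subunit of collagen prolyl hydroxylase, fell in the agonist effect (-0.90 ± 0.19, adjusted p = 0.0247) and none rose, with a list median of 0.02. Of 26 genes of TGF-beta and PDGF signalling 1 rose in the agonist effect, Ltbp2, an elastic fibre protein that carries the name of the latent TGF-beta-binding family. Ltbp2 was at 0.322, 0.402 and 1.22 CPM in isotype control, 2.97, 5.31 and 4.75 in agoCD40, 0.364, 0.939 and 0.754 in anti-IL-1R1 and 7.33, 6.89 and 3.75 in Combo, with an agonist effect of 2.90 ± 0.36 (adjusted p = 0.00185). Its agonist libraries all lay above the others, as those of Eln and Loxl1 did. Isotype control replicates 1 and 2 and anti-IL-1R1 replicate 1 lay under the cutoff of 0.424 CPM for Ltbp2. Skil, a repressor of SMAD signalling that TGF-beta induces, fell in agoCD40 against isotype control (-1.28 ± 0.26, adjusted p = 0.0415). Of 17 laminin and basement membrane genes 1 rose, Col4a3, a type IV collagen chain best known from kidney (2.66 ± 0.49, adjusted p = 0.0171), from 0.111 to 0.613 CPM without the agonist to 0.976 to 6.11 CPM with it. For Col4a3 too, levels without the agonist reached under that cutoff while every agonist library lay over it. Of 21 matrix degradation genes 4 rose and none fell: the stromelysin-like Mmp11 (1.52 ± 0.33), the membrane-type protease Mmp15 (0.80 ± 0.15), Mmp23 (1.48 ± 0.33) and Mrc2, the receptor that takes up collagen fragments (1.52 ± 0.34), with adjusted p between 0.0171 and 0.0353. Mmp15 also rose in Combo against isotype control (1.13 ± 0.21, adjusted p = 0.041).

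Markers of other cell types were measured beside these results. Of all genes, 2.48% passed in the agonist effect in either direction, 1.48% were higher and 49.9% were above 0. In agoCD40 against isotype control 0.718% of all genes passed. Of 11 tested markers of portal fibroblasts and mesothelium, Mfap4 (3.01 ± 0.48, adjusted p = 0.00724), Dpt (1.61 ± 0.33, adjusted p = 0.0247) and Entpd2 (0.86 ± 0.17, adjusted p = 0.0218) rose with the agonist. All 11 were above 0 with a median of 1.04. The summed level of that list was 10.6, 6.37 and 19.3 TPM in isotype control, 23.7, 24.5 and 25.9 in agoCD40, 7.31, 17.9 and 12.5 in anti-IL-1R1 and 59.3, 28.7 and 24.8 in Combo. The 6 agonist libraries lay above the 6 others on this sum too, and its part in the differences of the 40 genes was not tested. The mesothelial genes Msln and Wt1 were at 0 in anti-IL-1R1 replicate 1, and Wt1 also in isotype control replicate 1 and anti-IL-1R1 replicate 2. Of 10 Kupffer cell markers Cd163, Clec4f, Timd4 and Vsig4 fell with the agonist, led by Cd163 at -3.26 ± 0.26 (adjusted p = 6.42e-05), while 3 of the 10 were above 0 and the list median was -0.095. The list summed to 318 to 745 TPM in isotype control, 220 to 341 in agoCD40, 272 to 360 in anti-IL-1R1 and 344 to 524 in Combo. None of 6 smooth muscle, 10 sinusoidal endothelial or 11 bile duct and carcinoma epithelial markers passed in any comparison. Their medians for the agonist effect were 0.45, -0.17 and 0.11. Of 10 hepatocyte markers, Pck1 fell with the agonist (-0.60 ± 0.14, adjusted p = 0.0472) and Tat and Pck1 fell in agoCD40 against isotype control, with a list median of -0.35 for the agonist effect. The hepatocyte list summed to 60465 to 68149.5 TPM in isotype control, 53493 to 54891 in agoCD40, 59861.5 to 66741 in anti-IL-1R1 and 50970.4 to 58280.4 in Combo. The 6 agonist libraries lay below the 6 others on this sum, and its part in the differences of the 40 genes was not tested.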

How the data were processed

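The authors deposited 2 tables of gene values per gene: expected counts (estimated, not normalized) and TPM, which the authors scaled to 1000000 per library. Per the submitters' processing notes, the tools included STAR, RSEM 1.3.1, Trim Galore 0.6.7 and DESeq2 1.28.0, and the build was GRCm39. The notes assign no roles to these tools. The deposited values are named after Salmon, which the notes do not list, so the tool that produced them is not known here. No source used here states the counting strand, and exons of 16 members overlap another gene, so their reads could be shared.

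Expected counts were rounded, filtered with filterByExpr (minimum count 10), TMM-scaled and fitted once over all 12 libraries with edgeR 4.0.16 (quasi-likelihood F test, R 4.3.3). Benjamini-Hochberg adjustment ran over all 15465 tested genes at 0.05. The biological coefficient of variation was 0.291. Each SE given was derived as the absolute log2 fold change divided by the square root of the F statistic. An adjusted p in the report comes from this fit unless DESeq2 1.42.0 is named. CPM values use the same scaling. DESeq2, limma 3.58.1 on log2(TPM + 1) and log2(TPM + 0.1), other scalings, no filter, a replicate block, mitochondrial percent and left-out libraries were alternatives. The fitting code was tested on simulated data.

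Per-library values were given for members past the threshold and, in each role group, for the member of highest TPM and that of smallest p in the 5 comparisons planned first. For the pathway lists, 1 result is not reported here. Members, lists and rules were chosen with earlier results of these data known. Combo against anti-IL-1R1 and the mean agonist effect were added after the data were seen. Promoter windows come from RefSeq tables of GRCm38.p6 and exon overlaps from GENCODE on GRCm38, neither being the build of the counts.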

Additional observations from a re-analysis of the deposited data

How the results depend on the processing

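With the replicate number as a block, 5 members passed in the agonist effect (220 genes, 383 without the block), 0 in Combo against isotype control (23 genes) and 0 in Combo against anti-IL-1R1 (9 genes), with 72 genes in agoCD40 against isotype control, 2 in Combo against agoCD40 and 0 in the interaction. Same-numbered libraries did not deviate together (2 of 18 pairs correlated over 0.1, median -0.0256), so the numbers were not taken as pairs.

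DESeq2 called 17 members and 894 genes in the agonist effect, 16 and 486 in Combo against anti-IL-1R1, 12 and 377 in Combo against isotype control, 3 and 399 in agoCD40 against isotype control, and 3, 86 and 87 genes in anti-IL-1R1 against isotype control, Combo against agoCD40 and the interaction. Without a filter on low counts the same order gave 23 and 1005, 24 and 742, 19 and 466, and 7 and 466, then 63 genes, 3 members and 197 genes, and 3 members and 232 genes. Total-count scaling gave 0 genes in the interaction. With limma on log2(TPM + 1) and log2(TPM + 0.1), 7 members passed in the agonist effect (221 and 228 genes) and 1 in Combo against isotype control, with 46 and 44 genes in Combo against anti-IL-1R1, 59 and 67 in agoCD40 against isotype control and 0 in the interaction.

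Fits of only the groups compared gave 28 genes in agoCD40 against isotype control, 0 members and 9 genes in Combo against isotype control, 4 genes in Combo against agoCD40, and 2 members and 69 genes in Combo against anti-IL-1R1. With mitochondrial percent as a covariate, 16 members and 1067 genes passed in the agonist effect, 5 and 292 in Combo against isotype control, and 256, 11 and 3 genes in agoCD40 against isotype control, Combo against agoCD40 and the interaction. Without both libraries of highest mitochondrial percent, these were 6 and 230 in the agonist effect, 0 and 35 in Combo against isotype control, 0 and 10 in Combo against anti-IL-1R1, and 0 genes in the interaction. The causes of these differences were not tested.

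Leaving out 1 library at a time, members called ranged from 3 to 15 in the agonist effect, 0 to 3 in Combo against isotype control, 0 to 8 in Combo against anti-IL-1R1 and 0 to 1 in agoCD40 against isotype control, the last without isotype control replicate 3. Genes called ranged from 142 to 373, 12 to 39, 4 to 36 and 28 to 102 in the same order, 0 to 4 in Combo against agoCD40 and 0 to 13 in the interaction. The median of the members ranged from 0.0925 to 0.93 in Combo against agoCD40, 0.39 to 1.40 in Combo against isotype control and 0.37 to 1.25 in the interaction, the lowest values of the first and last without Combo replicate 1. No called member changed sign under any setting run. Lox and Timp1, and Ltbp2 and Col4a3 in the libraries without the agonist, are limited by their low counts.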
